A study of Homo sapiens with 60 samples.

Results

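The genes described here are E2F1, E2F2, E2F3, E2F7, E2F8, CCNE1, CCNE2, CCND1, CCNA2 and CDC25A, chosen by name as E2F transcription factors and as the cyclins and phosphatase that carry a cell from G1 into S phase. They are 10 of the 58395 genes in the count table. Each symbol matched 1 row, and all 10 genes passed the filter on low counts, with at least 58 reads in every library. The libraries are poly(A) RNA-seq of HEK293A, a human embryonic kidney line, in which TDP1 had been targeted with CRISPR/Cas9. TDP1 encodes tyrosyl-DNA phosphodiesterase, which removes trapped topoisomerase I from DNA, and topotecan is a drug that traps topoisomerase I.

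The libraries fall into 15 groups of 4. They come from 3 clones (C6, F7, G6) that were each given 5 treatments for 5 to 5.5 hours. The combination was topotecan at 100 nM with OL9-119 at 5 µM, for which the labels name no DMSO. Topotecan alone was given at 100 nM in 0.1% DMSO, and OL9-119, a compound known here by its code name, at 5 µM in 0.1% DMSO. The vehicle group received 0.1% DMSO, and the untreated group received nothing. Every group carries the TDP1 targeting and was grown with serum, and no unedited library was analysed here. Each clone descends from a single cell, so a difference between clones is a difference between these lines.

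In the cell cycle, cyclin D1 (CCND1) with CDK4 or CDK6, and then cyclin E (CCNE1, CCNE2) with CDK2, phosphorylate the retinoblastoma protein. This frees E2F1, E2F2 and E2F3, which activate the genes of DNA replication, including those of cyclin E, cyclin A2 (CCNA2), the CDK-activating phosphatase CDC25A and E2F1 itself. E2F7 and E2F8 are atypical family members, made in S phase, that repress the same genes. HEK293 cells carry the adenovirus E1A gene, whose protein binds retinoblastoma proteins, so the brake at the head of this pathway is altered in all groups.

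Sequence just upstream of the transcription start is shown for 5 of the genes, because E2F proteins act there and because these 5 genes changed with topotecan, the combination or both. The sequences are from RefSeq (GRCh38.p14), written 5′ to 3′ on the gene's strand and ending at the base before the start. RefSeq promoter entries were at hand for 7 of the 10 genes. Capitals mark matches on either strand to 4 E2F words (TTTCCCG or TTTCGCG, and TTTGCCG or TTTGGCG) and, on either strand, to the CHR words (TTTGAA and CTTGAA), the element through which the MuvB complex binds late cell-cycle promoters. These words were picked after the sequences had been seen.
E2F1, chr20:33686386-33686635, minus strand: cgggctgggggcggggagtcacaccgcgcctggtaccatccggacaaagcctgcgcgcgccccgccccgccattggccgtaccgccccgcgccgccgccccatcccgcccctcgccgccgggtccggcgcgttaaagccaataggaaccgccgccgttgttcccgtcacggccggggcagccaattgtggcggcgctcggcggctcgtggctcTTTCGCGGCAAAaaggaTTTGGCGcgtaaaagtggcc
E2F2, chr1:23531234-23531483, minus strand: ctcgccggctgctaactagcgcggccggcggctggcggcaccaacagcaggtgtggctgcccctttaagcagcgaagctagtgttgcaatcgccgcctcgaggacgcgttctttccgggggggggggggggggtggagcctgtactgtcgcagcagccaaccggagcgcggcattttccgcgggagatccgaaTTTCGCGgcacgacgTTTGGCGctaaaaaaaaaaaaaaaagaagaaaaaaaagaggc
E2F3, chr6:20401629-20401878, plus strand: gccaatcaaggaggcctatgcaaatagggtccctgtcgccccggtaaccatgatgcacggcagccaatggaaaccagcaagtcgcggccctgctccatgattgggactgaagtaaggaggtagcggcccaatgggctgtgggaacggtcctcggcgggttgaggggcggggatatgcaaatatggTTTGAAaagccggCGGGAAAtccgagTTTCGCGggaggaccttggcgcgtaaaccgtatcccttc
CDC25A, chr3:48188418-48188667, minus strand: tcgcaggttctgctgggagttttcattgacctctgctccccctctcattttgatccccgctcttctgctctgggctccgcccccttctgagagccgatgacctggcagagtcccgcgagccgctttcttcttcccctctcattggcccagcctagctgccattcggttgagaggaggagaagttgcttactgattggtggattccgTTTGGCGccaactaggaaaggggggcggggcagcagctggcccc
CCNA2, chr4:121823901-121823930, minus strand, only the bases around its CHR word: tttcaatagtcgcgggataCTTGAActgca

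E2F1 had E2F words starting 37 and 20 bases upstream of the RefSeq start and, overlapping the word at 37, a further word on the opposite strand at 32. E2F2 had them at 57 and 42 bases, CDC25A at 44 bases, and E2F3 at 39 bases and, on the opposite strand, at 52 bases, with a CHR word at 65 bases. The CCNA2 window of 250 bases held CHR words at 87 and 28 bases and no match to the 4 E2F words. The windows of E2F7, CCNE1 and a further start of E2F3 held no match. Over all 35116 RefSeq promoters of this length, 7.33% held an E2F word and 20.9% a CHR word. A match describes letters and not binding, and these words cover a small part of the sites that E2F proteins are known to bind.

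Depth ran from 4.62 to 20.9 M counts per library, with a median of 11.4 M. Of 7 genes usual in HEK293 cells, 6 were detected in all 60 libraries (VIM at 233 to 727 CPM, KRT8 at 500 to 1010 CPM), and PAX2 was at 0 in 1 library, with a median of 2.87 CPM. Of 10 marker genes of blood, endothelium, hepatocytes and fibroblasts, COL1A1 was detected in all 60 libraries (median 27.3 CPM), and no other passed 3.09 CPM in any library, with PTPRC at 0 in 53 and HBB at 0 in 55 of them. Reads of TDP1 itself came to 17.8 to 42.3 CPM, but a count over the whole gene does not test a short CRISPR lesion. Thinned to a common 4.5 M counts, 14 libraries held 17454 to 19345 detected genes, against 20160 to 23640 in the other 46. Of the 14, 10 were of clone C6 and 4 of clone G6. The labels call the 4 libraries of a group biological replicates without naming separate cultures, so p-values measure the spread between these samples, which may be technical in part.

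Compared per length in the 12 DMSO libraries, CCNA2 was the most abundant of the 10 mRNAs and CCNE1 the least. Mean RPKM was 61.0 ± 9.39 for CCNA2, 38.5 ± 12.5 for E2F1, 30.3 ± 6.22 for CCND1, 26.1 ± 2.03 for CDC25A and 21.4 ± 3.63 for E2F3 (SD, n = 12). The lower set was E2F2 at 10.3 ± 1.68, E2F8 at 10.2 ± 2.89, E2F7 at 10.0 ± 2.85, CCNE2 at 9.15 ± 3.52 and CCNE1 at 6.51 ± 1.13 RPKM (SD, n = 12). The step from E2F3 to E2F2 was the only one between neighbours in this order without overlap between the 12 values of each. E2F2 was above E2F8 in 7 of the 12 libraries and E2F8 above E2F7 in 8, while CCNA2 was above E2F1 in 11 of 12. The order of these E2F genes depended on clone. In C6, E2F7 (11.5 to 17.0 RPKM) was above E2F8 (7.28 to 10.4 RPKM) without overlap. In G6, E2F8 (11.1 to 16.3 RPKM) was above E2F7 (8.59 to 10.9 RPKM) without overlap, and in F7 the pair overlapped. E2F2 was apart from E2F8 in F7 (10.6 to 11.3 RPKM against 7.40 to 8.78 RPKM) and overlapped it in C6 and G6. By these means the order of activator E2F mRNAs was E2F1, E2F3 and E2F2, but in C6 E2F3 averaged 25.8 RPKM and E2F1 24.7 RPKM. CCNE2 was above CCNE1 in 10 of 12 libraries, and in F7, which held both exceptions, CCNE2 averaged 5.36 RPKM and CCNE1 5.93 RPKM.

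**Figure D1:**
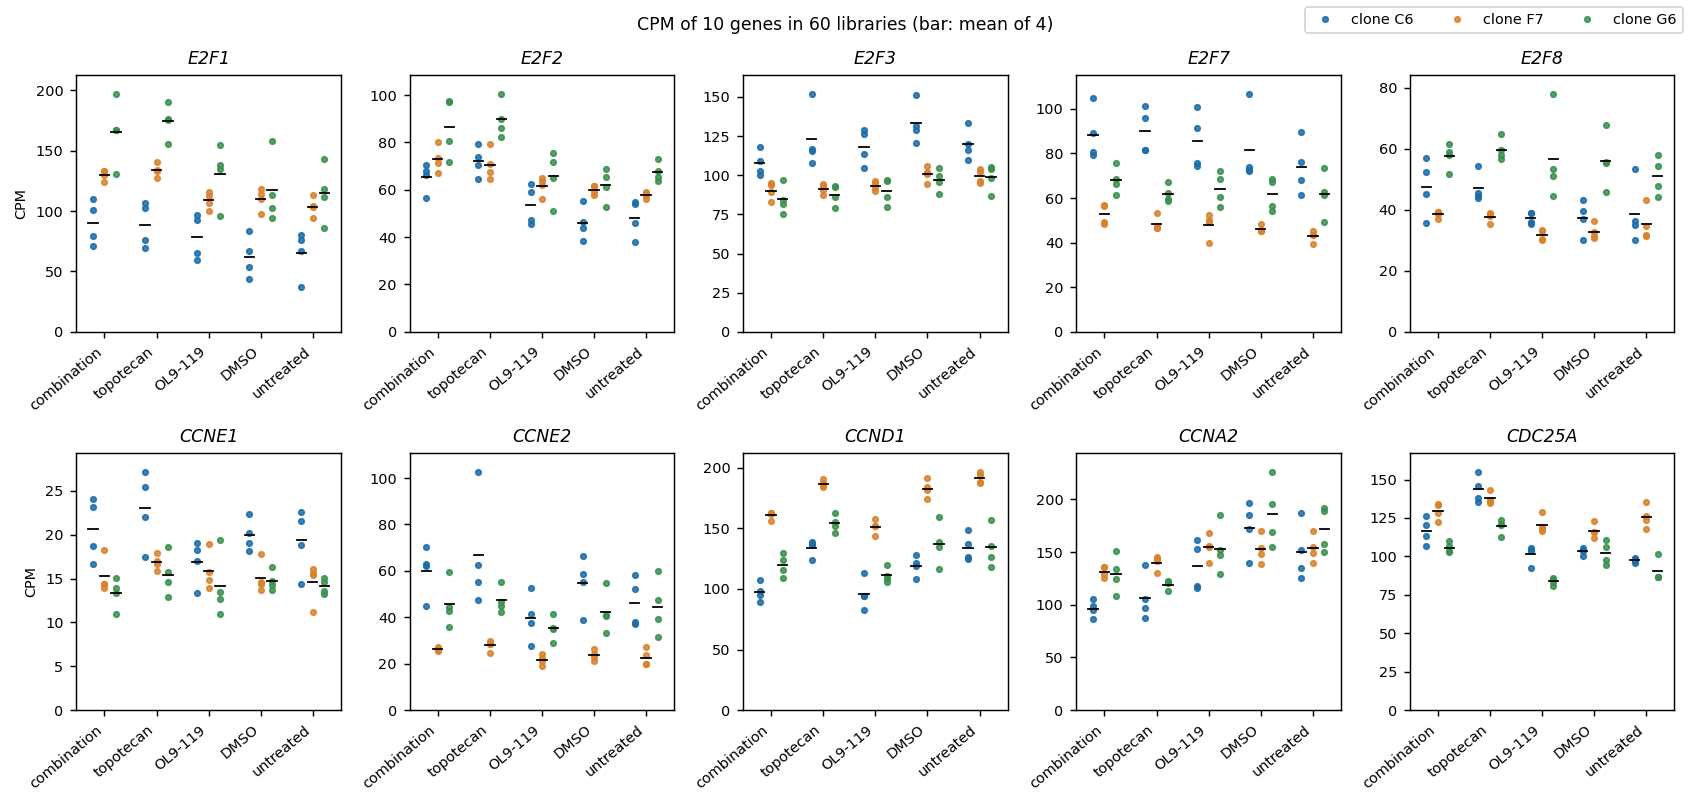
Normalised read counts (CPM, linear axis from 0) of the 10 genes in all 60 libraries, by treatment from left to right and by clone in colour, with a bar at the mean of 4 libraries. For E2F2 and CDC25A every topotecan library sits above every DMSO library of its clone, beside 2.83% of all genes apart in either direction. CCNE2 and E2F7 sit lowest in F7 under each treatment.

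Topotecan raised the mRNAs of E2F1, E2F2 and CDC25A and lowered that of CCNA2 relative to DMSO. With edgeR at an adjusted p under 0.05, taken over all 18985 genes tested, 3 of the 10 genes were higher and 1 was lower. Of all genes tested, 15.3% passed in this comparison (5.99% higher and 9.35% lower). The median log2 change was 0.18 over the 10 genes and 0.02 over all genes tested. The combination raised E2F1, E2F2 and CDC25A and lowered E2F3, CCND1 and CCNA2 relative to DMSO (3 higher and 3 lower). There 21.2% of all genes passed (9.52% higher and 11.7% lower), and the median over the 10 genes was 0.13 against -0.01 over all genes. OL9-119 alone lowered CCND1 (0 higher and 1 lower), where 9.47% of all genes passed, 4.47% higher and 5.00% lower. These 3 comparisons share the 12 DMSO libraries. In bulk RNA, a change in the share of cells in a cell-cycle phase and a change in mRNA per cell cannot be told apart.

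**Figure D2:**
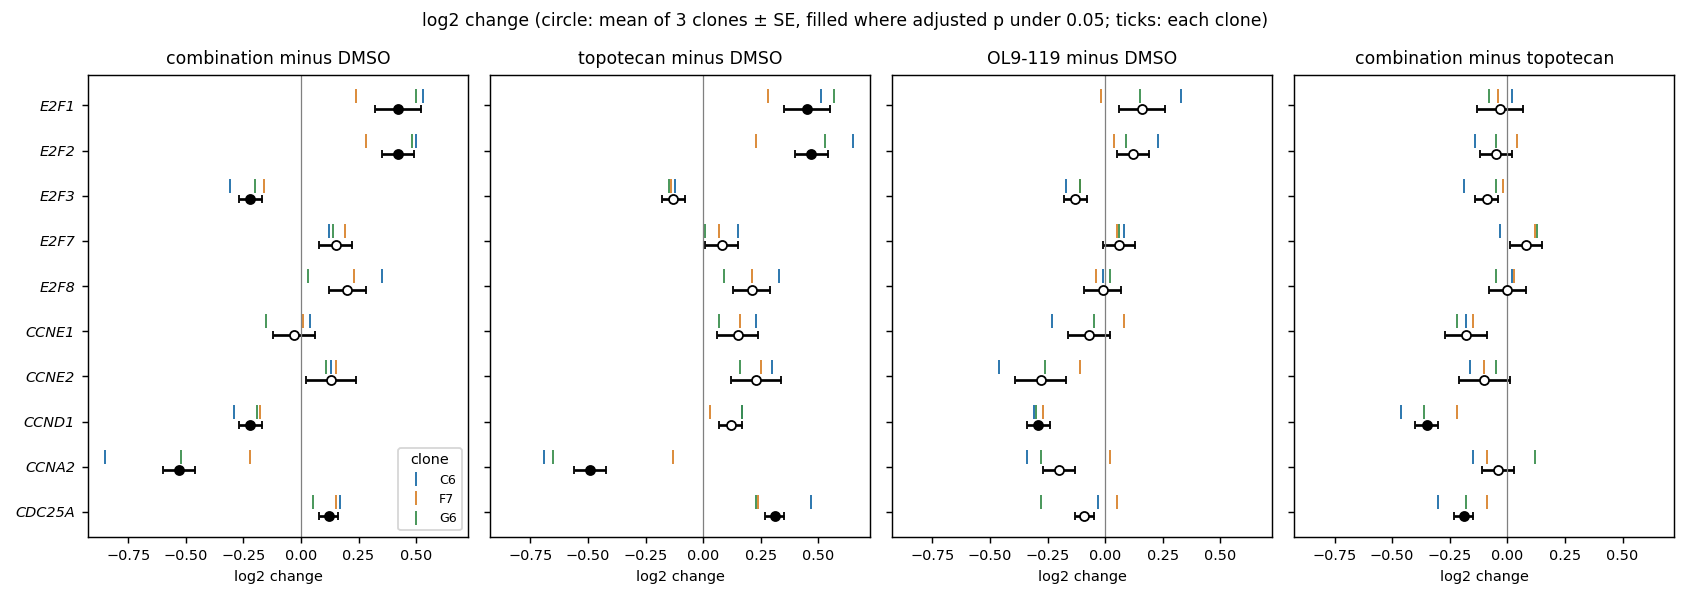
log2 change of each gene in 4 comparisons, with the mean of 3 clones ± SE as circles (filled where the adjusted p was under 0.05) and each clone as a coloured tick. In the panels of topotecan and of the combination against DMSO, all 3 ticks of a gene lie on the same side of 0, except for CCNE1 with the combination. CCND1 lies below 0 in each panel except that of topotecan against DMSO.

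E2F1 (ENSG00000101412, chromosome 20, 33675683 to 33686404 on hg38, minus strand), the best-known activator of the family, was higher with topotecan. In clone C6 its values were 76.3, 106.9, 102.6 and 69.2 CPM with topotecan and 53.5, 43.7, 83.7 and 66.7 CPM with DMSO. In clone F7 they were 127.2, 133.9, 133.0 and 140.8 CPM with topotecan and 110.3, 118.1, 114.0 and 97.8 CPM with DMSO. In clone G6 they were 155.6, 176.3, 175.7 and 189.9 CPM with topotecan and 94.4, 102.3, 113.3 and 158.3 CPM with DMSO. The groups were apart in F7 and touched in C6 and G6, where 1 DMSO library reached into the topotecan range. The change was 0.45 ± 0.10 on the log2 scale, or 1.37 times (SE, edgeR, adjusted p = 6.9e-04). With the combination E2F1 changed by 0.42 ± 0.10 (adjusted p = 0.00128), and the combination minus topotecan was -0.03 (95% interval -0.23 to 0.17), so any further effect of OL9-119 was within that range.

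E2F2 (ENSG00000007968, chromosome 1, 23506430 to 23531220, minus strand), an activator with a close functional overlap with E2F1, moved the same way with less spread. In clone C6 it had 70.6, 73.6, 79.2 and 64.5 CPM with topotecan and 43.7, 46.6, 55.4 and 38.2 CPM with DMSO. In clone F7 it had 64.6, 71.1, 67.4 and 79.3 CPM with topotecan and 57.9, 61.7, 61.6 and 59.2 CPM with DMSO. In clone G6 it had 82.4, 85.9, 100.6 and 90.0 CPM with topotecan and 52.5, 65.4, 61.1 and 68.8 CPM with DMSO. In each of the 3 clones every topotecan library was above every DMSO library, which held for 2.83% of all genes tested in either direction, and among the 10 genes for E2F2 and CDC25A. The log2 change was 0.47 ± 0.07, or 1.39 times (SE, edgeR, adjusted p = 1.33e-07), and by clone it was 0.65 in C6, 0.23 in F7 and 0.53 in G6. With the combination E2F2 ranged from 56.6 to 70.6 CPM in C6, 67.0 to 79.99 CPM in F7 and 71.7 to 97.3 CPM in G6, again above every DMSO library of the same clone. That change was 0.42 ± 0.07 against DMSO (edgeR, adjusted p = 1.35e-06) and 0.31 ± 0.07 against OL9-119 alone (adjusted p = 5.18e-04).

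E2F3 (ENSG00000112242, chromosome 6, 20401906 to 20493715, plus strand), the remaining activator, went the other way. Its lowest, median and highest values were 75.4, 94.2 and 118.0 CPM with the combination, 79.1, 93.0 and 152.1 CPM with topotecan, 79.6, 96.0 and 128.7 CPM with OL9-119, and 88.3, 103.5 and 151.4 CPM with DMSO (n = 12 each). The ranges overlapped over the 3 clones, C6 being high throughout, and within C6 every combination library (100.0 to 118.0 CPM) was below every DMSO library (120.6 to 151.4 CPM). The combination lowered E2F3, with a log2 change of -0.22 ± 0.05 (SE, edgeR, adjusted p = 8.4e-04). Topotecan alone gave -0.13 ± 0.05 (edgeR, adjusted p = 0.071) and OL9-119 alone -0.13 ± 0.05 (adjusted p = 0.106), neither past the threshold. Without the 14 libraries with few detected genes the topotecan change of E2F3 was -0.13 ± 0.05 and passed (edgeR, adjusted p = 0.0359), as it did in 4 of 66 alternatives in all. E2F3 is also the longest of the 10 genes, at 91.8 kb.

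In the main analysis the atypical repressors did not pass in any comparison of treatments. The main analysis is edgeR on all libraries, with the filter on low counts and no term for replicate number. E2F7 (ENSG00000165891, chromosome 12, 77021247 to 77065580, minus strand) had 48.4, 67.3 and 104.8 CPM with the combination, 46.7, 61.1 and 101.2 CPM with topotecan, and 45.1, 62.0 and 106.9 CPM with DMSO as lowest, median and highest value (n = 12 each). Its topotecan change was 0.08 (95% interval -0.06 to 0.21, edgeR, adjusted p = 0.554). E2F8 (ENSG00000129173, chromosome 11, 19224063 to 19241620, minus strand) had 35.7, 48.2 and 61.4 CPM with the combination, 35.4, 45.01 and 64.6 CPM with topotecan, and 30.2, 38.1 and 67.6 CPM with DMSO. Its changes were 0.21 ± 0.08 with topotecan (edgeR, adjusted p = 0.0671) and 0.20 ± 0.08 with the combination (adjusted p = 0.0576), close to the threshold. With each library left out in turn, E2F8 passed in 26 of 60 cases with topotecan (0.18 to 0.25) and in 31 with the combination (0.17 to 0.25). The combination against OL9-119 gave E2F8 0.22 ± 0.08 (edgeR, adjusted p = 0.0627). Over all 66 alternatives, E2F8 passed in 31 with topotecan, 36 with the combination and 21 with the combination against OL9-119. With all libraries and DESeq2, E2F8 passed in each of these 3 comparisons (adjusted p = 0.041, 0.0332 and 0.03). In C6 all topotecan libraries (43.7 to 54.2 CPM) were above all DMSO libraries (30.2 to 43.1 CPM), and in F7 and G6 they overlapped.

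In the main analysis, cyclin D1 was the 1 of the 10 mRNAs that passed with OL9-119 alone. CCND1 (ENSG00000110092, chromosome 11, 69641087 to 69654474, plus strand) encodes the cyclin that starts the pathway in response to growth signals. In clone F7 it had 161.7, 162.9, 156.4 and 162.7 CPM with the combination, 187.5, 183.9, 185.8 and 190.6 CPM with topotecan, 143.9, 151.6, 152.2 and 158.0 CPM with OL9-119 and 174.1, 181.6, 191.3 and 184.2 CPM with DMSO. In C6 it had 94.9, 107.4, 98.4 and 89.5 CPM with the combination, 136.8, 136.2, 123.8 and 138.5 CPM with topotecan, 113.0, 94.5, 94.4 and 82.6 CPM with OL9-119 and 121.3, 118.6, 127.98 and 108.1 CPM with DMSO. In G6 it had 109.4, 115.5, 124.2 and 129.5 CPM with the combination, 155.4, 162.7, 151.9 and 146.5 CPM with topotecan, 106.2, 110.8, 120.1 and 108.0 CPM with OL9-119 and 116.5, 134.2, 159.1 and 138.6 CPM with DMSO. In all 3 clones every combination library was below every topotecan library, as for 0.780% of all genes tested in either direction, while OL9-119 and DMSO libraries were apart in F7 and overlapped in C6 and G6.

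OL9-119 lowered CCND1 against DMSO, with a log2 change of -0.29 ± 0.05 (0.816 times, SE, edgeR, adjusted p = 5.99e-06), with similar values in C6 (-0.31), F7 (-0.27) and G6 (-0.30). Without the 14 libraries with few detected genes, CCNA2 (-0.22 ± 0.06), CCNE2 (-0.29 ± 0.09) and E2F2 (0.18 ± 0.06) also passed with OL9-119 (edgeR, adjusted p = 0.00458, 0.0183 and 0.0343). With all libraries and a block for replicate number, CCNE2, CCNA2 and E2F3 passed with OL9-119 (edgeR, adjusted p = 0.0098, 0.00974 and 0.0326). CCNE2 passed too without the filter on low counts (edgeR, adjusted p = 0.0311). With the combination the log2 change of CCND1 was -0.22 ± 0.05 against DMSO (edgeR, adjusted p = 2.42e-04) and -0.35 ± 0.05 against topotecan (adjusted p = 2.7e-07). With topotecan alone the change was 0.12 ± 0.05 (edgeR, adjusted p = 0.0646), which passed in 31 of 60 cases with a library left out. The combination against OL9-119 gave 0.07 (95% interval -0.02 to 0.16). The part of a CCND1 change that differs when both drugs are present, the interaction, was -0.05 (95% interval -0.18 to 0.08, edgeR, adjusted p = 0.817). Of CCND1 exon bases 10.3% overlap the opposite-strand gene LTO1. LTO1 had a log2 change of 0.11 with OL9-119 (edgeR, adjusted p = 0.328), and the strand setting of the counting is not given in the sources used here.

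The cyclin E genes encode partners of CDK2 that start DNA synthesis. CCNE1 (ENSG00000105173, chromosome 19, 29811898 to 29824308, plus strand) had 11.0, 14.7 and 24.0 CPM with the combination, 12.9, 17.2 and 27.2 CPM with topotecan, 11.0, 15.3 and 19.5 CPM with OL9-119 and 13.7, 15.5 and 22.4 CPM with DMSO as lowest, median and highest value (n = 12 each), and passed in no comparison of treatments with all libraries. CCNE2 (ENSG00000175305, chromosome 8, 94879770 to 94896678, minus strand) had 25.4, 43.7 and 70.1 CPM with the combination, 24.8, 45.8 and 102.7 CPM with topotecan, 19.1, 32.0 and 52.8 CPM with OL9-119 and 21.0, 39.7 and 66.4 CPM with DMSO. CCNE2 was lowest in clone F7 under each treatment, while C6 and G6 overlapped. Its log2 change was 0.23 ± 0.11 with topotecan (edgeR, adjusted p = 0.163) and -0.28 ± 0.11 with OL9-119 (adjusted p = 0.111), neither past the threshold, but the combination minus OL9-119, at 0.41 ± 0.11, passed (adjusted p = 0.00663). Without the 14 libraries with few detected genes, topotecan passed for CCNE2 (0.24 ± 0.08) and CCNE1 (0.21 ± 0.08), and OL9-119 passed for CCNE2 (edgeR, adjusted p = 0.0365, 0.0389 and 0.0183). In the combination against OL9-119, in the main analysis, 3 of the 10 genes (E2F2, CCNE2 and CDC25A) were higher and 1 (CCNA2) was lower, where 12.7% of all genes passed, 5.00% higher and 7.72% lower. None of the 10 had groups apart in all 3 clones there, beside 1.83% of all genes. Of CCNE2 exon bases 37% overlap INTS8 on the opposite strand, so reads of the pair may not be told apart. INTS8 had log2 changes of -0.16 with topotecan and -0.12 with OL9-119 (edgeR, adjusted p = 0.284 and 0.499).

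Cyclin A2, which joins CDK2 in S phase and CDK1 later, was in the main analysis the 1 of the 10 mRNAs that passed as lower with topotecan. CCNA2 (ENSG00000145386, chromosome 4, 121816444 to 121823933, minus strand) had 105.3, 87.9, 96.95 and 137.4 CPM with topotecan in clone C6 and 185.2, 196.5, 139.6 and 171.9 CPM with DMSO. In clone G6 it had 121.2, 120.4, 122.2 and 113.0 CPM with topotecan and 226.2, 195.3, 169.3 and 154.6 CPM with DMSO. In clone F7 it had 143.4, 130.2, 144.9 and 141.2 CPM with topotecan and 153.9, 138.8, 148.4 and 169.8 CPM with DMSO. The groups were apart in C6 and G6 and overlapped in F7.

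The CCNA2 change with topotecan was -0.49 ± 0.07 (0.713 times, SE, edgeR, adjusted p = 3.56e-07), made of -0.69 in C6, -0.13 in F7 and -0.65 in G6. A test for a difference of this change between clones (edgeR's quasi-likelihood test) gave 0.00308 before adjustment and an adjusted p of 0.601 over all genes. With the combination CCNA2 had 98.5, 105.7, 86.3 and 95.0 CPM in C6, 129.3, 125.4, 135.7 and 135.7 CPM in F7 and 151.3, 133.6, 124.8 and 108.8 CPM in G6, below every DMSO library of the same clone. Groups apart in 1 direction in all 3 clones made up 3.34% of all genes tested in this comparison, and among the 10 genes were E2F2 and CCNA2. The combination's change was -0.53 ± 0.07 against DMSO (edgeR, adjusted p = 4.39e-08), -0.33 ± 0.07 against OL9-119 (adjusted p = 5.43e-04) and -0.04 (95% interval -0.18 to 0.10) against topotecan. The opposite-strand gene EXOSC9, which overlaps 9.08% of CCNA2 exon bases, had a log2 change of 0.13 with topotecan (edgeR, adjusted p = 0.188).

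CDC25A, the phosphatase that removes inhibitory phosphates from CDK2 and is destroyed when the DNA damage checkpoint is active, had the smallest standard error of the 10 genes with topotecan. CDC25A (ENSG00000164045, chromosome 3, 48157146 to 48188402, minus strand) had 120.7, 106.8, 126.1 and 113.0 CPM with the combination, 145.9, 138.1, 135.2 and 155.0 CPM with topotecan, and 100.6, 103.4, 104.4 and 105.8 CPM with DMSO in clone C6. In clone F7 it had 133.3, 128.1, 134.1 and 122.5 CPM with the combination, 143.3, 134.9, 136.6 and 135.9 CPM with topotecan, and 123.2, 116.0, 112.2 and 115.6 CPM with DMSO. In clone G6 it had 110.0, 102.9, 106.5 and 103.3 CPM with the combination, 123.5, 120.6, 112.5 and 121.2 CPM with topotecan, and 110.7, 97.7, 106.4 and 94.2 CPM with DMSO. Topotecan was above DMSO in every clone without overlap, beside 2.83% of all genes tested that were apart in either direction. The combination lay below topotecan in every clone without overlap, beside 0.780% of all genes.

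Topotecan changed CDC25A by 0.31 ± 0.04 (1.24 times, SE, edgeR, adjusted p = 2.57e-09), with 0.47 in C6, 0.24 in F7 and 0.23 in G6. The combination changed it by 0.12 ± 0.04 against DMSO (edgeR, adjusted p = 0.0121) and by -0.19 ± 0.04 against topotecan (adjusted p = 4.44e-04). OL9-119 alone gave -0.09 ± 0.04 (edgeR, adjusted p = 0.14). In the combination against topotecan, CCND1 and CDC25A were the 2 of 10 genes that passed, both lower (0 higher), where 6.78% of all genes passed, 3.33% higher and 3.45% lower. For CDC25A the interaction of the drugs was -0.10 (95% interval -0.20 to 0.01, edgeR, adjusted p = 0.737). The fall against topotecan weakened to -0.13 ± 0.04 without the 14 libraries with few detected genes (edgeR, adjusted p = 0.0917), and without the filter on low counts it was -0.20 (adjusted p = 0.0626). Without that filter the change against DMSO was 0.14 (edgeR, adjusted p = 0.224).

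The vehicle and the interaction moved none of the 10 genes past the threshold. DMSO minus untreated ran from -0.07 for CCND1 to 0.11 for CCNA2 on the log2 scale (0 of 10, edgeR, beside 0.0158% of all genes), with 0 of the 10 at an unadjusted p under 0.05 and 0 passing with DESeq2. None had groups apart in all 3 clones, beside 0.00527% of all genes. The interaction ran from -0.19 for E2F1 to 0.18 for CCNE2 (0 of 10, edgeR, beside 0.0316% of all genes, 0.00527% higher and 0.0263% lower), with 0 at an unadjusted p under 0.05 and 0 passing with DESeq2. Tests for a clone difference in the response passed for 0 of the 10 genes with topotecan (edgeR, 0.137% of all genes), OL9-119 (0.0263%) and the combination (0.169%). At an unadjusted p under 0.05 there were 3 genes with topotecan, 1 with OL9-119 and 1 with the combination, and 0 passed with DESeq2. The lowest unadjusted p among them was 0.00188, for CDC25A with OL9-119, whose change was -0.03 in C6, 0.05 in F7 and -0.28 in G6. Library names carry 3 prefixes (L01, L02 and L03), each with every group in it. Within these, the 17 treatment changes that passed kept their sign in all 3 prefixes. With 20 libraries in each, 10 of the 17 passed in at least 1 prefix, and 3 of these in all 3. E2F1 with topotecan passed in 1 of the 3 prefixes. The topotecan change of E2F2 was 0.42 to 0.54, that of CDC25A 0.30 to 0.36, that of E2F1 0.27 to 0.57 and that of CCNA2 -0.62 to -0.28.

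Topotecan lowered many long genes in these libraries, so the changes are set beside gene span. Among protein-coding genes of 10 to 30 kb the median topotecan change was 0.09 (quartiles -0.02 and 0.21), with 11.4% higher and 1.77% lower. E2F1 at 10.7 kb and E2F2 at 24.8 kb lay above the upper quartile of that bin, E2F8 lay at that quartile and CCNE2, at 0.23, just above it, while CCNE1 and CCND1 lay inside the bin's quartiles. CCNA2, at 7.49 kb the shortest of the 10 genes, fell, while genes under 10 kb had a median of 0.12 (quartiles 0.01 and 0.24) and 1.12% of them were lower. CDC25A at 31.3 kb rose in a bin, 30 to 100 kb, with a median of -0.01 (quartiles -0.12 and 0.11), where E2F7 lay inside the quartiles and E2F3 just under the lower one. The part of span in these changes was not tested.

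**Figure D3:**
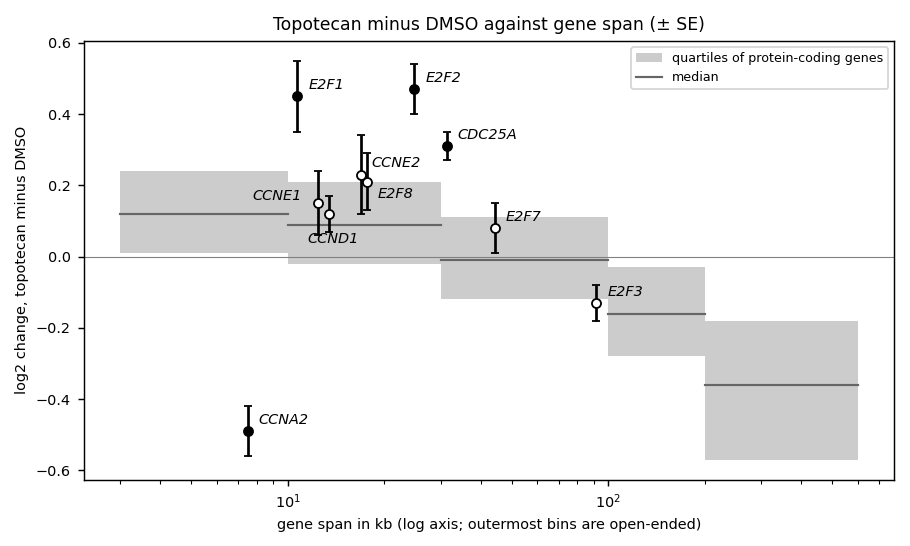
log2 change of the 10 genes with topotecan against DMSO (± SE, filled where the adjusted p was under 0.05) by gene span in kb on a log axis, over the quartiles (grey) and median (line) of protein-coding genes in 5 bins of span. The bin median falls to -0.36 over 200 kb, CCNA2 lies at -0.49 in the shortest bin, and E2F1, E2F2 and CDC25A lie well above the grey boxes.

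Among other genes of the pathway, many S phase genes known as E2F targets rose with topotecan. Of 30 tested, 17 were higher and 1 was lower (median log2 change 0.20, beside 0.02 over all genes, of which 5.99% were higher and 9.35% lower). CDC6 and ORC1, which load helicases at origins, changed by 0.45 ± 0.04 and 0.49 ± 0.07 (edgeR, adjusted p = 4.25e-14 and 2.72e-07). MCM4, a helicase subunit, changed by 0.32 ± 0.03 (adjusted p = 1.16e-12), and POLA1, the catalytic subunit of DNA polymerase alpha, by -0.41 ± 0.04 (edgeR, adjusted p = 4.21e-11). With the combination 11 were higher and 1 lower (median 0.13, beside 9.52% and 11.7% of all genes), with CDC6 at 0.33 ± 0.04 and POLA1 at -0.33 ± 0.04. With OL9-119 alone 2 were higher and 4 lower (median 0.03, beside 4.47% and 5.00% of all genes). Those with the smallest p included FEN1, a flap nuclease of replication, at -0.29 ± 0.04 (edgeR, adjusted p = 7.24e-07), PCNA, the polymerase clamp, at -0.22 ± 0.05 (adjusted p = 0.00153), and CDT1, a licensing factor, at 0.48 ± 0.13 (adjusted p = 0.00674).

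Several E2F partners and retinoblastoma genes fell with topotecan. Of 8 E2F partners, retinoblastoma family members and other E2F genes, 4 were lower and 0 higher with topotecan (median -0.21, beside 9.35% of all genes lower and 5.99% higher). These were the dimer partner TFDP2 at -0.43 ± 0.06, the retinoblastoma gene RB1 at -0.41 ± 0.12, the repressor E2F5 at -0.33 ± 0.11 and RBL2, which encodes p130, at -0.20 ± 0.07 (edgeR, adjusted p = 2.07e-08, 0.0086, 0.0345 and 0.0392). With the combination 2 were lower and 1 higher (11.7% and 9.52% of all genes), with TFDP2 at -0.42 ± 0.06 and E2F6, a repressor, at 0.30 ± 0.05 (edgeR, adjusted p = 3.09e-08 and 1.31e-05). Of 6 genes of the MuvB and DREAM complex, LIN54, its DNA-binding subunit, was the 1 that passed against DMSO, with OL9-119, at 0.25 ± 0.08 (edgeR, adjusted p = 0.0458).

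The counts with topotecan in the next 4 lists stand beside 5.99% of all genes higher and 9.35% lower. Among 9 CDKs and other cyclins, topotecan raised CDK2 (0.18 ± 0.03) and CCND2, another D cyclin (0.31 ± 0.06), and lowered 3. These included CDK6, the partner of D cyclins (-0.53 ± 0.10), and MNAT1, an assembly factor of the CDK-activating kinase (-0.47 ± 0.09). Among 7 CDK inhibitors it raised CDKN2B, an inhibitor of CDK4 and CDK6 (0.51 ± 0.06, edgeR, adjusted p = 5.2e-10), and CDKN1A, which encodes p21 (0.19 ± 0.05, adjusted p = 0.00749), and lowered CDKN1B (-0.20 ± 0.05). The combination gave CDKN2B 0.72 ± 0.06 and CDKN2C -0.33 ± 0.06, and OL9-119 gave CDKN2B 0.27 ± 0.06 and CDKN1A -0.17 ± 0.05 (edgeR, adjusted p = 9.15e-04 and 0.0291). Among 10 genes for turnover of cyclins, E2F1 and CDC25A, topotecan raised 0 and lowered 3. They were BTRC, the ubiquitin ligase subunit that targets CDC25A (-0.53 ± 0.05), CCNF, which targets CDC6 and activator E2F proteins (-0.61 ± 0.08), and the scaffold CUL1 (-0.34 ± 0.06). Among 8 checkpoint genes CLSPN (0.39 ± 0.07) and PKMYT1 (0.42 ± 0.13) rose and CDC25C (-0.32 ± 0.07) and CHEK2 (-0.21 ± 0.06) fell.

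Gene span went with direction in these lists. Of the 14 listed genes that topotecan lowered, 7 span over 100 kb (among them POLA1 at 303 kb, RB1 at 296 kb, MNAT1 at 235 kb, CDK6 at 232 kb, TFDP2 at 205 kb and BTRC at 203 kb). Of the 23 it raised 1 does, and of the 41 not called 6 do. Among all protein-coding genes of 100 to 200 kb, 31.6% were lower with topotecan and 1.11% higher. Over 200 kb, 56.8% were lower and 0.0850% higher. CCNF, at 29.5 kb, and CDKN1B, at 7.31 kb, are short genes that fell. The part of span was not tested here either.

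**Figure D4:**
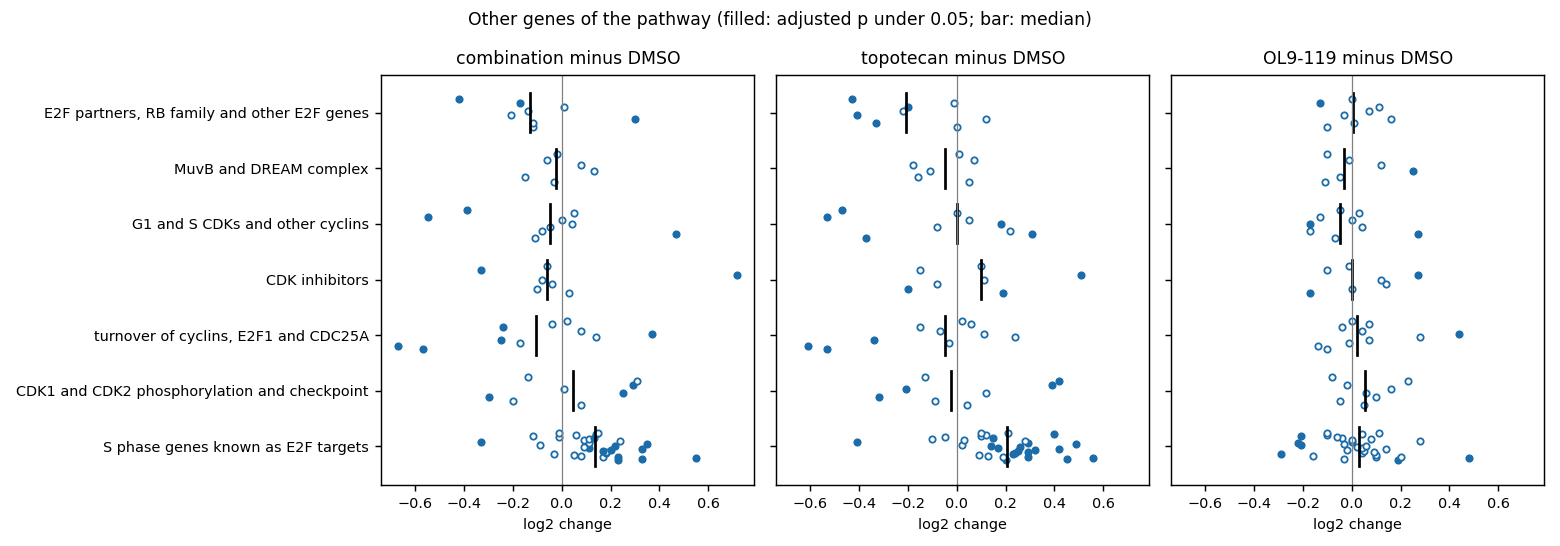
log2 change of 78 other pathway genes in 7 lists (rows) for the combination, topotecan and OL9-119, each against DMSO, with filled points at an adjusted p under 0.05 and a bar at each list's median. The S phase genes lie mostly right of 0 with topotecan (median 0.20), and the E2F partners and retinoblastoma family left of it (median -0.21).

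In the vehicle the clones differed in most of the 10 genes, with differences of up to 1.21 on the log2 scale between 2 clones. The largest treatment change that passed was -0.53, which is a mean of 3 clones. By single clone, the CCNA2 change with the combination reached -0.85, in C6. In DMSO, C6 against F7 had 4 of the 10 genes higher and 4 lower (39.5% of all genes passed, 20.4% higher and 19.2% lower). C6 against G6 had 3 higher and 3 lower (24.4%, 11.6% higher and 12.8% lower), and F7 against G6 had 2 higher and 3 lower (17.1%, 6.89% higher and 10.2% lower). CCNE2 differed most, with 66.4, 58.5, 38.8 and 55.2 CPM in C6, 24.3, 21.0, 26.3 and 22.7 CPM in F7, and 54.8, 40.9, 40.5 and 33.2 CPM in G6. It was 1.21 ± 0.20 higher on the log2 scale in C6 than in F7 and -0.85 ± 0.19 in F7 against G6 (SE, edgeR, adjusted p = 1.14e-06 and 0.0011). F7 thus had the lowest CCNE2 of the clones, with no overlap with either of the others. The share of all genes with clone ranges apart was not counted. INTS8, which overlaps CCNE2, differed by 0.11 ± 0.16 between C6 and F7 (edgeR, adjusted p = 0.616).

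E2F1 and E2F2 were lower in C6 than in the other clones, and E2F3, E2F7 and CCNE1 were higher. E2F1 had 53.5, 43.7, 83.7 and 66.7 CPM in C6 against 97.8 to 118.1 CPM in F7 and 94.4 to 158.3 CPM in G6, with no overlap. Its difference was -0.82 ± 0.18 against F7 and -0.91 ± 0.18 against G6 (SE, edgeR, adjusted p = 2.1e-04 and 9.32e-05). E2F3 had 120.6 to 151.4 CPM in C6 against 94.2 to 106.0 CPM in F7 and 88.3 to 104.9 CPM in G6, or 0.40 ± 0.09 and 0.45 ± 0.09 (edgeR, adjusted p = 2.73e-04 and 9.4e-05). E2F2 had 38.2 to 55.4 CPM in C6 against 57.9 to 61.7 CPM in F7 and 52.5 to 68.8 CPM in G6, or -0.39 ± 0.12 and -0.43 ± 0.12 (edgeR, adjusted p = 0.00623 and 0.00415). CCNE1 had 18.2 to 22.4 CPM in C6 against 13.7 to 17.8 CPM in F7 and 13.7 to 16.4 CPM in G6, or 0.40 ± 0.15 and 0.43 ± 0.16 (edgeR, adjusted p = 0.0342 and 0.0381). The CCNE1 calls were lost in 24 and 22 of 60 cases with a library left out, so they are weak. E2F7 had 72.2 to 106.9 CPM in C6, 45.1 to 48.2 CPM in F7 and 54.2 to 68.4 CPM in G6, 3 ranges apart from each other. The share of all genes with clone ranges apart was not counted, for E2F7 or the other genes here. E2F8 was highest in G6, at 45.8 to 67.6 CPM, against 30.2 to 43.1 CPM in C6 and 30.6 to 36.3 CPM in F7. CCND1 was highest in F7, at 174.1 to 191.3 CPM, against 108.1 to 127.98 CPM in C6 and 116.5 to 159.1 CPM in G6, a difference of -0.62 ± 0.08 for C6 minus F7 and 0.42 ± 0.08 for F7 minus G6 (edgeR, adjusted p = 1.23e-08 and 1.26e-04). LTO1, which overlaps CCND1, was also lower in C6 than in F7, at -0.79 ± 0.12 (edgeR, adjusted p = 1.42e-07), and its part in the result was not tested. CCNA2 passed between no pair of clones, with 139.6 to 196.5 CPM in C6, 138.8 to 169.8 CPM in F7 and 154.6 to 226.2 CPM in G6.

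**Figure D5:**
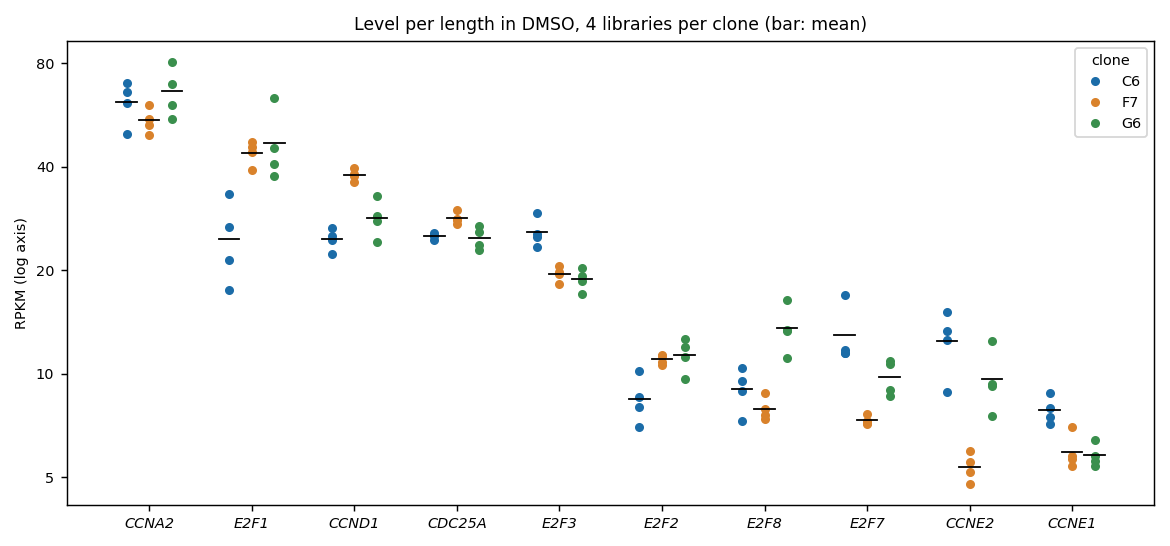
Level per length (RPKM, log axis) of the 10 genes in DMSO, 4 libraries per clone with a bar at their mean, ordered by mean over the 12 libraries. E2F1 is lowest in C6, CCND1 highest in F7, E2F8 highest in G6, and CCNE2 lowest in F7.

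Libraries with few detected genes bear on clone C6, which holds 10 of the 14, 2 of them among its 4 DMSO libraries. Over all treatments of C6, these 10 averaged 93.3 CPM of E2F7, 63.8 CPM of CCNE2 and 65.4 CPM of E2F1, against 74.4, 43.3 and 88.2 CPM in the other 10 libraries of the clone. Without the 14 libraries, C6 minus F7 was 0.66 ± 0.10 for E2F7, 1.00 ± 0.15 for CCNE2 and -0.56 ± 0.12 for E2F1 (edgeR, adjusted p = 1.3e-06, 3.96e-07 and 1.46e-04). The E2F7 difference between C6 and G6, 0.40 ± 0.12 with all libraries, was 0.19 ± 0.11 without them (adjusted p = 0.211). The topotecan changes were 0.42 ± 0.06 for E2F1, 0.48 ± 0.06 for E2F2 and 0.22 ± 0.06 for E2F8 without these libraries (edgeR, adjusted p = 1.4e-06, 9.28e-09 and 0.00425).

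The S phase genes also differed between clones. Of the 30, 20 were higher and 0 lower in C6 than in F7 (median log2 difference 0.37, beside 20.4% and 19.2% of all genes). In C6 against G6, 14 were higher and 4 lower (median 0.23, beside 11.6% and 12.8%). In F7 against G6, 0 were higher and 13 lower (median -0.25, beside 6.89% and 10.2%).

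Across the 15 group means the 10 genes did not move as a block. E2F1 and E2F2 followed each other (r = 0.89), as did E2F7 and CCNE2 (r = 0.91), while E2F1 and E2F3 ran opposite (r = -0.94) and so did E2F7 and CCND1 (r = -0.85). These are descriptions over groups that share clones. Out of 12120 candidates (average log2 CPM 2 or more), the genes closest in pattern were ZNF75A and DUSP1 for E2F1 (r = 0.97 each), SHF for E2F2 (0.94), FAM120B and TMEM248 for E2F3 (0.97 each), OGFRL1 for E2F7 (0.99), MNS1 for E2F8 (0.97), BPGM for CCNE1 (0.96), BLOC1S6 for CCNE2 (0.98), CYP1A1 and TXNDC17 for CCND1 (0.97 each), SGO2 and RACGAP1 for CCNA2 (0.95 each), and SPRTN and SRPRB for CDC25A (0.91 each). SGO2 and RACGAP1 act in mitosis and cell division.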

How the data were processed

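Poly(A) RNA of 60 libraries was sequenced from a directional kit, per the labels' protocols. The authors deposited 1 table of whole-number read counts per gene, not normalised. The submitters' processing notes name STAR 2.7.8, the build hg38, FastQC 0.11.9 and Picard 2.26.6. They do not name a counter or its strand option, and no header does. Gene IDs were matched to GENCODE 29 (58275 genes), which gave a symbol to 57754 of 58395 genes and supplied coordinates and exon lengths. Where counting ignored strand, overlapping genes share reads.

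Counts were analysed with edgeR 4.0.16 in R 4.3.3 (limma 3.58.1). filterByExpr over the 15 groups kept 18985 genes, TMM factors ran from 0.925 to 1.08, and a quasi-likelihood fit gave each group a mean (45 residual degrees of freedom). A treatment contrast is the mean of 3 clone differences, and p-values were adjusted by Benjamini-Hochberg over all genes tested, with calls at 0.05. CPM uses TMM library sizes, and RPKM divides by exon-union length. Depth was 4.62 to 20.9 M counts. Relative counting error is largest where counts are lowest, as for CCNE1 (58 counts in untreated replicate 4 of F7). Over 90 pairs of libraries of a group, chi-square per degree of freedom was 1.93 to 37.8, so none was a duplicate. Scripts were tested on simulated data. Alternatives were DESeq2 1.42.0, its size factors, no filter, a replicate block, only the groups compared, leaving out each library, and leaving out 14 libraries with few detected genes. The 10 genes and the lists were chosen with earlier results of these data known; other genes are named as the up to 4 of a list and comparison with the smallest p among those passing, and overlapping or similarly patterned genes by rule.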

Additional observations from a re-analysis of the deposited data

Results flagged for a closer look

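In 7 of 150 groups of 4 libraries, 1 library of a gene stood far from the other 3, by a gap that chance gives in about 1 in 20 groups. E2F7 had 106.9 CPM in the DMSO library of replicate 2 of clone C6, against 72.2 to 74.0 CPM in the others, and this library is among the 14 with few detected genes. E2F7 had 53.1 CPM in topotecan replicate 3 of F7, against 46.7 to 47.6 CPM. CCNE1 had 18.2 CPM in combination replicate 4 of F7, against 13.9 to 14.4 CPM, and 11.2 CPM in untreated replicate 4 of F7, against 15.5 to 16.1 CPM. CCND1 had 123.8 CPM in topotecan replicate 3 of C6, against 136.2 to 138.5 CPM. CDC25A had 92.5 CPM in OL9-119 replicate 1 of C6, against 103.7 to 105.4 CPM, and 101.5 CPM in untreated replicate 4 of G6, against 86.6 to 86.9 CPM.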

How the results depend on the processing

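Of the 17 treatment changes of the 10 genes that passed, 15 kept direction and call under all 66 alternatives. The exceptions were CDC25A with the combination against DMSO and against topotecan, whose values are given with that gene, and all 17 passed with each library left out. Of the 36 member results that passed, clones included, 9 lost their call in some alternative and 0 turned. Of the 64 that did not pass, 15 passed in some alternative and 16 changed sign in some. The E2F7 difference of C6 from G6 lost its call without DMSO replicate 2 of C6 or DMSO replicate 1 of G6 (range 0.24 to 0.45 with each library left out), that of F7 from G6 without DMSO replicate 2 or 3 of G6 (-0.47 to -0.36), and CDC25A in C6 against F7 without DMSO replicate 1 of either clone (-0.21 to -0.15). CDC25A in F7 against G6 lost its call in 5 of 60 cases (0.15 to 0.23), and E2F2 in C6 against G6 with only the groups compared (-0.44, edgeR, adjusted p = 0.0684). Counts of genes called moved over 1.5 times as follows, the cause not tested. Without the filter, DMSO against untreated gave 13, the interaction 40 and clone dependence of OL9-119 9. Without the 14 libraries with few detected genes, OL9-119 gave 2902, DMSO against untreated 0 and clone dependence of topotecan 52. With only the groups compared, where fewer libraries set the spread, DMSO against untreated gave 0, C6 against G6 2362, clone dependence of OL9-119 0 and of the combination 11. With DESeq2, DMSO against untreated gave 16, the interaction 14, and clone dependence 46 for topotecan, 8 for OL9-119 and 51 for the combination. Leaving out each library gave 1 to 12 for DMSO against untreated, 3 to 10 for the interaction, 3 to 6 for clone dependence of OL9-119 and 21 to 43 for the combination. With the replicate block, the combination against topotecan gave 2455, DMSO against untreated 11 and the interaction 14, while 0 calls of the 10 genes were lost and 10 were gained, among them CCNE2 and CCNA2 with OL9-119. Same-numbered libraries of a clone deviated together by correlations of -0.287 to 0.443 (median 0.0425, 46 of 120 over 0.1). For libraries of a clone with other numbers and treatments they were -0.340 to 0.371 (median -0.00987, 36 of 360 over 0.1). All 10 pairs were over 0.1 for replicate 3 of C6 and replicates 1 and 4 of G6 (medians 0.264, 0.157 and 0.412), and not for the other 9 numbers. By a rule that needs every pair over 0.1, the numbers were not taken as pairing the samples. The main analysis may thus leave out a pairing that part of the numbers carry.

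Sign changes were all among results that did not pass. E2F8 for the combination against topotecan was 0.01 with DESeq2 or its size factors. Without the filter, E2F8 for DMSO against untreated was -0.00 and the interactions of E2F7 and E2F8 -0.00 and -0.01. Without the 14 libraries, CCNE1 was 0.00 with the combination and -0.04 for DMSO against untreated, E2F1 was 0.02 for the combination against topotecan, and the CCND1 interaction 0.00. With only the groups compared, E2F8 was -0.00 for DMSO against untreated. With each library left out, E2F8 ran from -0.08 to 0.03 with OL9-119, from -0.04 to 0.03 for the combination against topotecan and from -0.03 to 0.06 for DMSO against untreated. Likewise CCNE1 ran from -0.06 to 0.02 with the combination, E2F1 from -0.07 to -0.00 and CCNA2 from -0.07 to 0.01 for the combination against topotecan, and E2F1 from -0.05 to 0.06 for DMSO against untreated. The interactions ran from -0.04 to 0.04 for E2F7 and from -0.03 to 0.07 for E2F8. Between clones, C6 minus G6 ran from -0.19 to 0.00 for CCNA2 and from -0.02 to 0.06 for CDC25A, and F7 minus G6 from -0.18 to 0.09 for E2F1, from -0.12 to 0.01 for E2F2 and from -0.06 to 0.08 for CCNE1.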
